A study of Mus musculus with 8 samples.

Results

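The genes described here are 8 genes of Schwann cells and peripheral nerve, Mbp, Sox10, S100b, Cdh19, Erbb3, Gfra3, Prph and Ncam1, measured in the distal trachea and carina of mice. A probe set is a group of short probes against 1 transcript or a few. Every probe set that the platform annotation assigns to 1 of these symbols and to no other gene was taken, which gave 28 of the 45037 probe sets tested and 8 of the 18193 genes. This rule for probe sets used no measured values, but the genes themselves were picked with earlier results of these data known. Tissue of 4 old mice (14 months, numbered 1, 2, 5 and 6) and of 4 young mice (2 months, numbered 3, 4, 7 and 8) was compared, all of them C57Bl/6 females with no treatment named in the labels, to ask which tracheal genes change with age. Each mouse had 1 Affymetrix Mouse Genome 430 2.0 array.

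Schwann cells ensheath the axons of peripheral nerves, wrapping large axons in myelin and holding small ones in unmyelinated bundles. In the airway wall they accompany the vagal sensory and autonomic fibres that supply muscle, glands and epithelium, and small ganglia lie along the trachea. During development axons keep Schwann cells alive through neuregulin, which the glia read through the paired receptors Erbb2 and Erbb3. Sox10 is the transcription factor that sets glial identity and turns on myelin genes.

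RNA came from the whole dissected tissue, so fewer cells of a type and less RNA per cell cannot be told apart, and several of the 8 genes are also made by other cells of the airway. The values are signals in arbitrary units, on a linear scale and without detection calls. The array medians lay between 149.6 and 160.5, and arrays of the same age correlated at r = 0.951 to 0.958, against 0.947 to 0.952 between ages. Of the markers of the tissue, Scgb1a1, the secretory protein of club cells, was at 25658 to 31083 in old and 26941 to 30905 in young mice. Nkx2-1, a transcription factor of lung and tracheal epithelium, was at 54.3 to 99.9 in old and 63.02 to 126.3 in young mice, below the signal of the median probe set. Among the 8 genes the brightest probe sets of Mbp, S100b, Cdh19 and Erbb3 had signals of 559 or more in every mouse. The brightest probe set of Sox10, the defining glial marker, lay near the median probe set of the arrays, whose signal was 151.

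No probe set of the 8 genes passed the test of age. In a limma fit of age on log2 signal, the lowest Benjamini-Hochberg adjusted p among the 28 probe sets was 0.144. Over all 45037 probe sets, 32 passed an adjusted p of 0.05 in either direction, which is 0.0711%. With an unadjusted p below 0.05, 7 of the 28 were lower in old mice and 0 were higher, against 5.41% lower and 5.76% higher over all probe sets. In 3 of the 28 every old mouse lay below every young mouse, against 3.75% of all probe sets, and in the other 25 the ages overlapped. The log2 fold change of old minus young was negative for 24 of the 28 probe sets and positive for 4, with a median of -0.24. Over all probe sets 51.1% were negative, with a median of -0.0062. These probe sets are not independent, since those of 1 gene read the same RNA.

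With each gene taken at its brightest probe set, all 8 genes had a negative log2 fold change, with a median of -0.22, while 51.0% of all 18193 genes were negative, with a median of -0.0047. In this fit 0 of the 8 passed an adjusted p of 0.05, which 0.55% of all genes did. Mbp, Prph and Erbb3 were lower in old mice with an unadjusted p below 0.05, and 0 of the 8 were higher, against 7.28% lower and 7.31% higher over all genes. The plot of the brightest probe sets shows the 8 mice gene by gene.

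**Figure D1:**
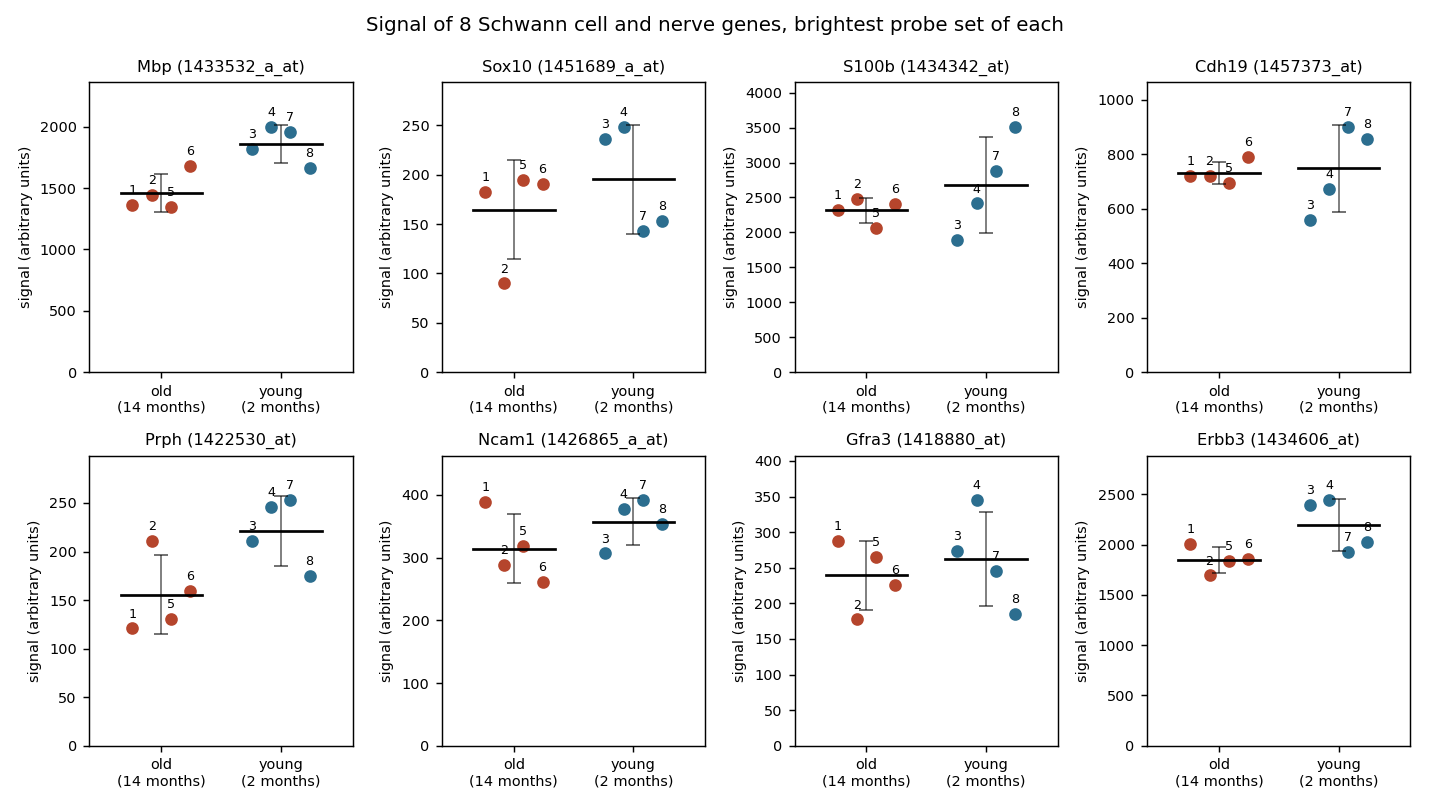
Signal of the brightest probe set of each gene (vertical axis, arbitrary units, from 0) in each of 4 old and 4 young mice (points, with mouse numbers), with the mean (line) and SD (bar). The old mean is below the young mean in every panel, and the ages overlap in every panel.

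Mbp encodes myelin basic protein, which packs the cytoplasmic faces of the myelin membrane together. The gene lies on chr18:82475091-82585637 (GRCm38.p6, RefSeq) and has 8 probe sets on the array. The brightest, 1433532_a_at, had signals of 1361, 1446, 1345 and 1682 in old mice 1, 2, 5 and 6, against 1819, 2003, 1960.1 and 1665 in young mice 3, 4, 7 and 8. Old mouse 6 reached just above young mouse 8, and the other 3 old mice lay below all the young. The means were 1458 ± 155 in old and 1862 ± 153 in young mice (SD, n = 4 each). The log2 fold change was -0.35 (95% interval -0.61 to -0.10, limma adjusted p = 0.301).

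The 2 Mbp probe sets that separated the ages were dimmer. Probe set 1436201_x_at had 205, 186, 222 and 257 in the old mice, against 351, 454, 374 and 311 in the young. Every old mouse was below every young mouse, and young mouse 4 stood highest. Its log2 fold change of -0.77 (SE 0.15) was the largest among the probe sets of Mbp, and its adjusted p of 0.144 was the lowest of all 28. The exact permutation p was 0.0286, the smallest that 4 mice against 4 allow, two-sided. With a trended and robust variance prior, or with only the brighter part of the probe sets tested, this probe set alone of the 28 passed, at limma adjusted p-values of 0.0281 and 0.0238. Probe set 1419646_a_at read 519, 457, 472 and 465 in old mice and 559, 608, 657 and 652 in young mice, which gave a log2 fold change of -0.37 (SE 0.09, limma adjusted p = 0.216), again with no overlap.

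The Mbp probe sets differed in size and sign. Another, 1456228_x_at, had a log2 fold change of -0.42 (SE 0.14, limma adjusted p = 0.344), with old mouse 6 at 478 above young mouse 8 at 453. Against these 4 stood 1425264_s_at, the next brightest after 1433532_a_at, with 1265, 1112, 1374 and 1211 in old mice against 1213, 1268, 1074 and 1131 in young mice. The ages overlapped throughout, and the log2 fold change was 0.08 (95% interval -0.15 to 0.31). Probe set 1425263_a_at had 0.15, and the remaining pair, 1454651_x_at and 1451961_a_at, had -0.15 and -0.17, all with intervals that held 0. The suffix x marks probes that can bind other transcripts, and which Mbp transcripts each probe set reads was not examined. The plot of the 8 Mbp probe sets sets the 4 lower ones beside the other 4.

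**Figure D2:**
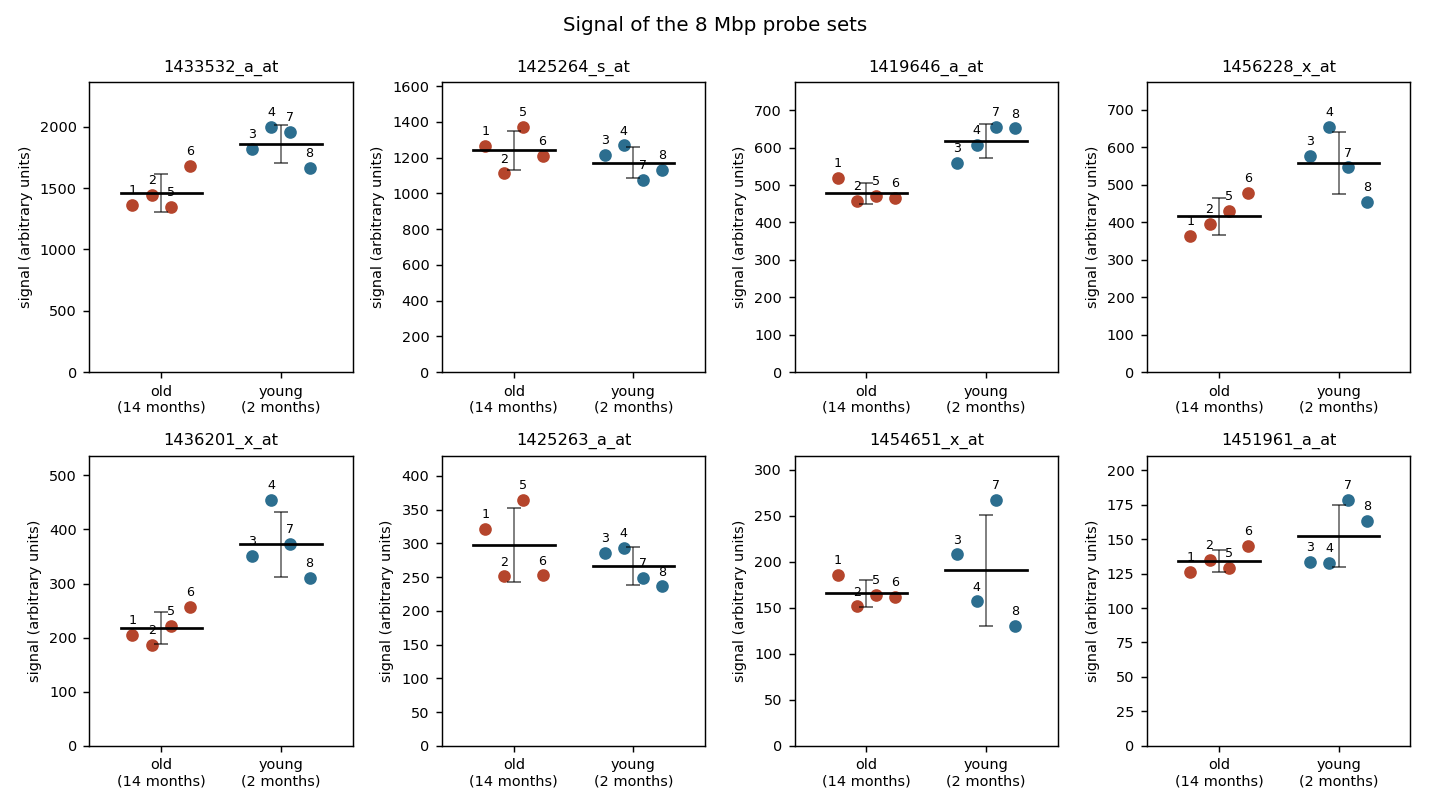
Signal (vertical axis, arbitrary units, from 0) of the 8 Mbp probe sets, from the brightest to the dimmest, in 4 old and 4 young mice (points, with mouse numbers), with the mean (line) and SD (bar). Old mice lie fully below young mice in 1419646_a_at and 1436201_x_at, whereas 1425264_s_at and 1425263_a_at have the higher mean in old mice.

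Transcripts of the Mbp locus are also made in lymphocytes. Of 8 measured T and B cell markers, 7 were higher in old mice with an unadjusted p below 0.05, and their summed signal was 893 to 1694 in old and 587 to 657 in young mice. Cd3g, a chain of the T cell receptor complex, had signals of 176, 161, 261 and 340.4 in old mice against 105, 135, 95.6 and 114 in young mice (log2 fold change 1.004, limma adjusted p = 0.135). This sum was higher in old mice, while 6 Mbp probe sets had a negative and 2 a positive log2 fold change. The part of lymphocytes in the Mbp values was not tested.

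Sox10 lies on chr15:79154913-79164490. Its brightest probe set, 1451689_a_at, had 182.5, 89.9, 195 and 190.5 in old mice against 236, 249, 143 and 153 in young mice. Young mice 3 and 4 were above all old mice, and young mice 7 and 8 were below all old mice but mouse 2. The log2 fold change was -0.27 (95% interval -0.99 to 0.45, limma adjusted p = 0.797), and it was -0.0014 without old mouse 2. Probe set 1424985_a_at had 156, 152, 130.4 and 121 in old mice and 173, 224, 101 and 235 in young mice, which gave a log2 fold change of -0.33 (SE 0.27). There the lowest of all was young mouse 7, and the log2 fold change was -0.59 without that mouse (unadjusted p = 0.00763, adjusted p = 0.258, limma) and -0.18 without young mouse 8. The third, 1425369_a_at, was dim in all mice, from 8.08 to 58.4, with an SE of 0.63 around -0.57. No Sox10 probe set passed the adjusted threshold, and the interval of the brightest leaves room for a young level up to 1.99 times the old.

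Melanocytes share Sox10 with glia. The summed signal of 8 melanocyte markers was 1515 to 1668 in old mice and 1477 to 1541 in young mice, with 1 marker higher and 1 lower in old mice with an unadjusted p below 0.05. Within it Mlana, a melanosome protein, was at 139, 135, 182 and 186 in old mice against 34.4, 19.99, 54.4 and 60.96 in young mice. Its log2 fold change was 2.03 (limma adjusted p = 0.061). Pmel differed the other way, with 73.6, 97.8, 58.0 and 62.8 in old mice against 94.2, 100, 105 and 100 in young mice. Its log2 fold change was -0.48 (limma adjusted p = 0.231). Mitf, Slc45a2 and Oca2, the 3 brightest markers, had -0.0071, -0.12 and -0.14. Over the 8 markers, 4 values lay above 0 and 4 below, with a median of 0.039. The summed signals given for lists add linear signals, so the brightest genes weigh most. Here that gene was Mitf, with a mean of 858 in old and 862 in young mice. The part of melanocytes in the Sox10 values was not tested.

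S100b encodes a calcium-binding protein used as a Schwann cell marker, on chr10:76253836-76261319, and its 2 probe sets differed. The brighter, 1434342_at, had 2322, 2477, 2064 and 2406 in old mice against 1890.4, 2416, 2886 and 3516 in young mice. The young mice spread widely and held both the lowest and the highest of the 8 values. Means were 2317 ± 180.2 in old and 2677 ± 692 in young mice (SD, n = 4 each), with a log2 fold change of -0.17 (95% interval -0.62 to 0.27, limma adjusted p = 0.785). It was -0.33 without young mouse 3 and -0.031 without young mouse 8. The dimmer, 1419383_at, had 599, 555, 497 and 680.7 in old mice against 682.2, 737, 749 and 949 in young mice. Old mouse 6 and young mouse 3 nearly met, and the ages were otherwise apart. Its log2 fold change was -0.42 (95% interval -0.75 to -0.09, limma adjusted p = 0.347).

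S100b is also a gene of cartilage and fat cells, and the dissected airway holds cartilage rings. The summed signal of 13 cartilage markers was 29132, 32749, 26590 and 28142 in old mice 1, 2, 5 and 6, against 21445, 34817, 30742 and 39174 in young mice 3, 4, 7 and 8. It was lowest in young mouse 3 and highest in young mouse 8, the same mice as for 1434342_at. The other S100b probe set, 1419383_at, was lowest in old mouse 5 and highest in young mouse 8. Cdh19 was also lowest in young mouse 3 but highest in young mouse 7. Acan, the aggregating proteoglycan of cartilage, had 4228, 4407, 3946 and 3907 in old mice and 4593, 6329, 5681 and 8140.3 in young mice, which gave a log2 fold change of -0.56 (limma adjusted p = 0.188). Comp, a matrix protein of cartilage, differed the other way, with 3058, 3266, 2943 and 2998 in old mice against 1375, 2265, 1904 and 2394 in young mice (log2 fold change 0.66, limma adjusted p = 0.15). For both genes the ages did not overlap. Every old mouse lay below every young mouse in 3.75% of all probe sets, and the reverse was not counted over all probe sets. The sum of 6 adipocyte markers was 11669 to 23865 in old and 16193 to 25692 in young mice. Of the cartilage markers 1 was higher and 2 lower in old mice with an unadjusted p below 0.05, and of the adipocyte markers 0 higher and 1 lower. The share of either cell type in the S100b signal was not tested.

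Cdh19, on chr1:110888002-110977601, encodes a cadherin of the Schwann cell lineage and has 1 probe set, 1457373_at. Signals were 720.1, 722, 696 and 791 in old mice, against 559, 673, 902 and 857 in young mice. All 4 old mice lay inside the range of the young. Means were 732 ± 40.8 in old and 748 ± 160.1 in young mice (SD, n = 4 each). The log2 fold change was -0.0060 (95% interval -0.38 to 0.37, limma adjusted p = 0.994), an interval that runs between 1.30 times lower and 1.29 times higher in old mice.

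Erbb3, on chr10:128567523-128589635, encodes the neuregulin receptor that lacks strong kinase activity of its own and signals through Erbb2. Probe set 1434606_at had 2006, 1695, 1842 and 1857 in old mice, against 2391, 2441, 1928 and 2026 in young mice. Young mice 3 and 4 stood above all others, while young mice 7 and 8 lay close to the old. Means were 1849.9 ± 127 in old and 2197 ± 257 in young mice (SD, n = 4 each), with a log2 fold change of -0.24 (95% interval -0.50 to 0.02, limma adjusted p = 0.478). Its unadjusted limma p was 0.0617 in the fit of probe sets and 0.0478 in the fit of genes. In the fit of genes that p reached 0.12 when 1 mouse was left out, and with the mean of both probe sets the log2 fold change was -0.15 at a p of 0.575. The second Erbb3 probe set, 1452482_at, was dim, from 12.1 to 43.6, with a log2 fold change of -0.05 (SE 0.48).

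The partner receptor Erbb2 showed the same 2 young mice on top. It had 682, 572, 681 and 633 in old mice, against 916, 921, 655 and 659 in young mice, with a log2 fold change of -0.28 (SE 0.15, limma adjusted p = 0.429). Young mice 3 and 4 were the highest of the 8, and young mice 7 and 8 lay within the old range. Both receptors are abundant in airway epithelium. The summed signal of 10 epithelial markers was 69474 to 79429 in old and 69919 to 75371 in young mice, with 2 higher and 0 lower in old mice with an unadjusted p below 0.05. The epithelial share of the Erbb3 signal was not tested.

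Of the 6 other neuregulin ligand and receptor genes, 0 passed an adjusted p of 0.05 and 0 were below an unadjusted p of 0.05 in either direction, with a median of -0.11. Nrg1, the axonal ligand for Schwann cells, had a log2 fold change of 0.31 (SE 0.22) on a dim probe set, with 65.8 to 106.9 in old and 53.5 to 92.2 in young mice. Erbb4 was dimmer still, from 2.41 to 33.9 over the 8 mice.

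Gfra3, on chr18:34689898-34720387, encodes the co-receptor for artemin, present on sensory and sympathetic neurons and on Schwann cell precursors. Its only probe set, 1418880_at, had 288, 178, 266 and 225 in old mice, against 273, 345, 246 and 185 in young mice. The ages overlapped almost fully, with the lowest value in old mouse 2 and the highest in young mouse 4. The log2 fold change was -0.12 (95% interval -0.65 to 0.40, limma adjusted p = 0.883).

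For 2 ligands of its family every old mouse lay below every young mouse, which held for 3.75% of all probe sets. Of 8 other GDNF family ligand and receptor genes, 2 were lower in old mice with an unadjusted p below 0.05 and 0 higher. Over all genes 7.28% were lower and 7.31% higher. Of the 8 genes 0 passed an adjusted p of 0.05, and their median was -0.20. Nrtn, neurturin, a survival factor for parasympathetic neurons, had 237, 160.2, 347 and 287 in old mice against 494, 398, 373 and 405 in young mice. Every old mouse was below every young mouse, with a log2 fold change of -0.74 (SE 0.23, limma adjusted p = 0.208). Gdnf itself was dim, at 10.9, 13.5, 14.2 and 30.7 in old mice and 48.1, 37.4, 31.996 and 38.2 in young mice. These also did not overlap, with a log2 fold change of -1.27 (SE 0.31) at signals far below that of the median probe set and a limma adjusted p of 0.134, which was 0.0319 without old mouse 6. Artn, the ligand of Gfra3, had a log2 fold change of -0.41 (SE 0.19, limma adjusted p = 0.364).

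Prph encodes peripherin, the intermediate filament of peripheral axons, and lies on chr15:99053579-99058978. The stretch that holds the letters of a TATA box in its promoter window is shown here from RefSeq (GRCm38.p6), at chr15:99055123-99055202 on the plus strand, with the letters TATAAA in capitals, which begin at position -31 from the start that the promoter table uses, a start that lies inside the gene's annotated span.
Prph: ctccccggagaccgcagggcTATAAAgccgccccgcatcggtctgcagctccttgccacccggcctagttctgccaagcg
The letters TATAAA, chosen after this sequence had been read and searched on both strands, occur in 13.6% of 32851 promoter windows of 300 bases. The letters ACAAAG or ACAATG, cores bound by SOX factors, searched on both strands, occur in 28.6% of the windows and in neither of the windows matched here, those of Prph and S100b.

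Of the 4 Prph probe sets only 1422530_at was brighter than the median probe set. It had 121, 211.05, 131 and 159.7 in old mice, against 211.10, 246, 253 and 175 in young mice. Old mouse 2 nearly matched young mouse 3 and exceeded young mouse 8, and the other 3 old mice lay below all the young. Means were 156 ± 40.5 in old and 221 ± 35.8 in young mice (SD, n = 4 each), with a log2 fold change of -0.53 (95% interval -1.004 to -0.05, limma adjusted p = 0.407). The other 3 probe sets read 106, 113, 68.2 and 106 in old against 93.8, 103, 135 and 67.8 in young mice (1420256_x_at), 63.4 to 94.8 in old against 46.9 to 119 in young mice (1449797_x_at), and 6.57 to 56.96 in old against 11.3 to 53.3 in young mice (1449796_at). Their log2 fold changes were -0.0055, 0.19 and -0.06, with adjusted p-values of 0.877 or more by limma. With the mean of all Prph probe sets in place of the brightest, the gene's log2 fold change was -0.10 at an unadjusted limma p of 0.710.

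Of 15 other axon and neuron structure genes 11 had a negative log2 fold change, the sign of the brightest Prph probe set. Their median was -0.19, and 0 were below an unadjusted p of 0.05 in either direction. Over all genes 51.0% were negative, and 7.28% were lower and 7.31% higher at that unadjusted p. Several of the 15 had mean signals below that of the median probe set, 151. Syt1, a synaptic vesicle calcium sensor, had 283, 389, 365 and 415 in old mice against 503, 406, 544 and 399 in young mice (log2 fold change -0.35, SE 0.16, limma adjusted p = 0.357). Tubb3, the neuronal tubulin, had -0.26 and Stmn2, a growth cone protein, -0.21.

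Ncam1, on chr9:49502129-49799393, encodes the neural cell adhesion molecule, carried by neurons and by Schwann cells without myelin. It has 7 probe sets, 2 of them brighter than the median probe set. The brightest, 1426865_a_at, had 388, 289, 319 and 262 in old mice, against 307, 378, 391 and 354 in young mice. Old mouse 1 was among the highest and the ages overlapped, with a log2 fold change of -0.19 (95% interval -0.53 to 0.14, limma adjusted p = 0.670). Probe set 1426864_a_at had 194, 183, 157 and 253 in old mice against 292, 306, 232 and 191 in young mice, which gave a log2 fold change of -0.37 (SE 0.20). The lowest unadjusted p of the 7 was that of 1450437_a_at, with 107, 85.8, 102 and 74.96 in old mice against 131, 111, 128 and 104 in young mice (log2 fold change -0.37, SE 0.14, limma adjusted p = 0.407). There old mouse 1 was above young mouse 8, and the other 3 old mice lay below all the young. The other 4 were dim, and 1425126_at among them had a positive log2 fold change, 0.31 (SE 0.26).

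Skeletal muscle and neuroendocrine cells also carry Ncam1. The summed signal of 10 skeletal muscle markers was 2591 to 3923.55 in old mice and 3923.53 to 5550.45 in young mice, with Tnnt3, fast troponin T, at 1142, 712, 512 and 776 in old against 1600.0, 1926, 1592 and 1337 in young mice (log2 fold change -1.09, limma adjusted p = 0.106). Of the 10 muscle markers 5 had a negative and 5 a positive log2 fold change, with a median of 0.09, and 3 were lower and 0 higher with an unadjusted p below 0.05. Of 7 neuroendocrine markers 1 rose, Scg2, a secretory granule protein, with 172, 131, 129.8 and 153 in old mice against 48.4, 54.96, 59.1 and 32.9 in young mice (log2 fold change 1.61, SE 0.20, limma adjusted p = 0.029). That call held only without young mouse 8 among the 8 fits that left out 1 mouse, where the adjusted p ranged between 0.0256 and 0.0824, and it was lost in the ordinary linear model, at 0.0574. The summed neuroendocrine signal was 646 to 809.6 in old and 534 to 672 in young mice. The part of these cells in the Ncam1 values was not tested. None of the measured list genes was at 0 in any mouse, the lowest signal being 2.41.

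**Figure D3:**
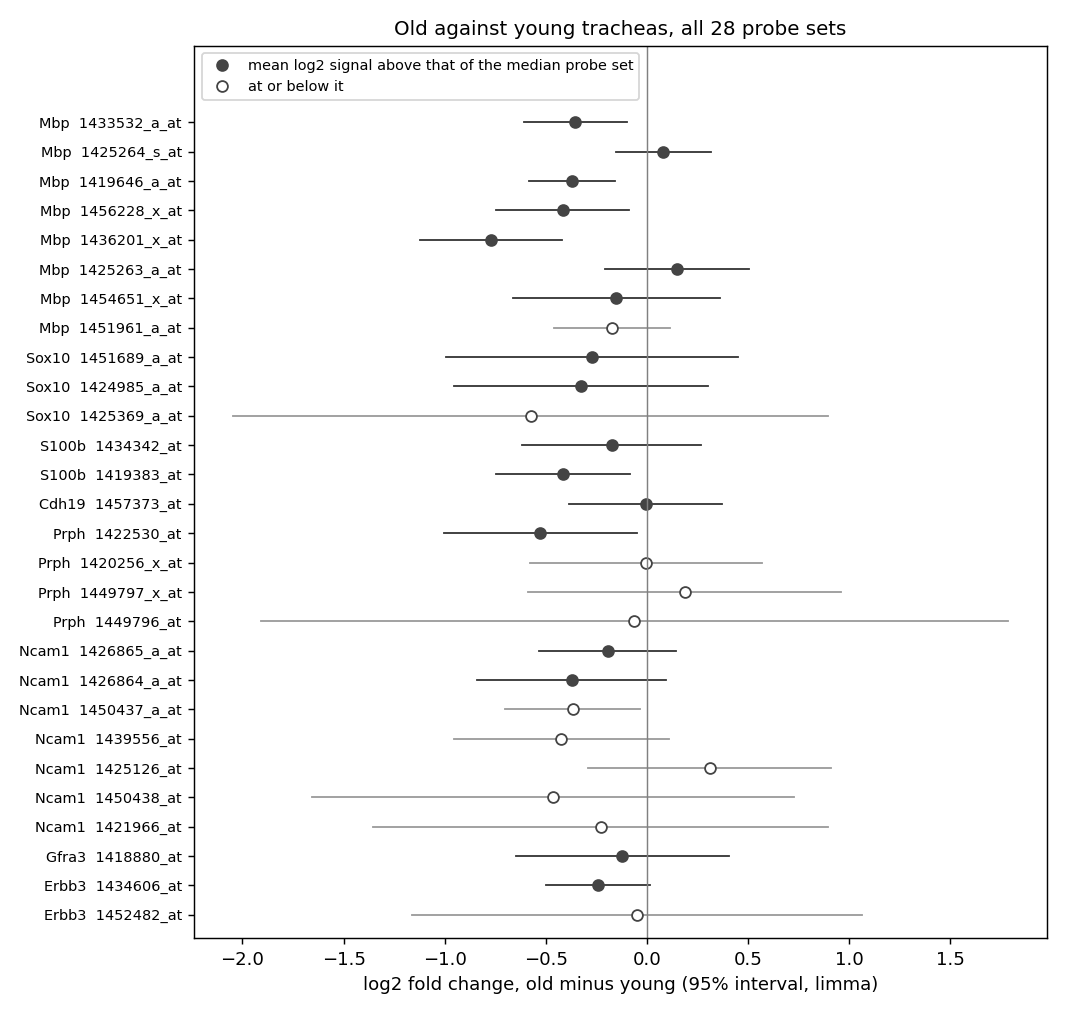
Log2 fold change of old minus young (horizontal axis) with its 95% limma interval for all 28 probe sets, filled where the mean log2 signal is above that of the median probe set. Of the 28 values 24 lie left of 0 and 4 right of it, and the intervals are widest for dim probe sets of Sox10, Prph, Ncam1 and Erbb3.

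Across the 8 brightest probe sets, each scaled to its own mean, the average log2 level was -0.05 in old mouse 1, -0.23 in old mouse 2, -0.12 in old mouse 5 and -0.06 in old mouse 6. It was 0.04 in young mouse 3, 0.26 in young mouse 4, 0.15 in young mouse 7 and 0.03 in young mouse 8. The highest mouse was young for all 8 genes, young mouse 4 for 4 of them, young mouse 7 for 3 and young mouse 8 for 1. The lowest mouse was old for 6 genes and was young mouse 3 for S100b and Cdh19.

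The young mice fell apart in different ways for different genes. Erbb3 and the brightest Sox10 probe set were higher in young mice 3 and 4 than in 7 and 8, whereas Cdh19 and S100b were higher in 7 and 8. Scn7a, a sodium channel of Schwann cells and sensory neurons, followed the second order, with 1910.0, 1500.3, 1698 and 1691 in old mice against 1599, 1819, 2560.2 and 2301 in young mice (log2 fold change -0.26, SE 0.16, limma adjusted p = 0.505). These orders were read off the values and were not tested. A block that set the lower mouse numbers (1 to 4) apart from the higher (5 to 8) left the adjusted count for the 28 probe sets at 0 and the unadjusted count at 7.

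Of 9 submucosal gland and myoepithelial markers 1 was higher and 0 were lower in old mice with an unadjusted p below 0.05, and of 10 markers of tracheal tissue 1 was higher and 2 were lower. The 8 genes were set beside 7 lists of other nerve genes, together 82 genes, of which 75 were measured. Of these 75, 0 passed an adjusted p of 0.05 by limma, and 6 were lower and 3 higher in old mice with an unadjusted p below 0.05. A negative log2 fold change was found for 45, with a median of -0.06. Over all genes 7.28% were lower and 7.31% higher at that unadjusted p, and 51.0% were negative, with a median of -0.0047. The counts given for each list are to be read beside these shares. Where ages did not overlap, the share of all probe sets with every old mouse below every young mouse was 3.75%. The reverse was not counted over all probe sets. Myelin sheath genes had a median of 0.02 over 12 measured genes, and Schwann lineage genes 0.0045 over 14. Each list had 1 gene lower and 0 higher in old mice with an unadjusted p below 0.05.

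In the myelin list the lowest p was that of Ugt8a, which makes the galactolipid of myelin, with 444, 409.7, 449 and 492 in old mice against 595, 610.1, 872 and 647 in young mice. The ages did not overlap, with a log2 fold change of -0.59 (SE 0.13, limma adjusted p = 0.114). Pmp22, a membrane protein of compact myelin, had -0.12 (SE 0.08), and Mal, a lipid raft protein of myelin and of epithelium, had 0.34 (SE 0.15). In the Schwann lineage list Foxd3, a transcription factor of early glia, had -0.40 (SE 0.17, limma adjusted p = 0.321) and Sox2 0.15 (SE 0.07), a gene that airway basal cells share.

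Adhesion and polysialylation genes had 2 of 9 higher and 0 lower in old mice with an unadjusted p below 0.05, with a median of 0.13. Over all genes 7.31% were higher and 7.28% lower. Nfasc, the adhesion molecule neurofascin of the nodes of Ranvier, had 220.2, 175, 201 and 194 in old mice against 138, 138, 137 and 146 in young mice, with no overlap, a log2 fold change of 0.49 (SE 0.08) and a limma adjusted p of 0.057. That p was between 0.0131 and 0.0315 when dim probe sets were left out or floors of 32 or 64 were set on the signal. St8sia4, which adds polysialic acid to Ncam1, had 0.31 (SE 0.11, limma adjusted p = 0.274). Of 12 measured genes of autonomic and sensory neuron identity 1 was higher and 2 were lower, with a median of -0.22. Most of the 12 had mean signals below that of the median probe set, 151. Scn10a, 1 of the 2 lower, was at 2.43 to 16.0 in old and 15.7 to 39.7 in young mice. Isl1, a transcription factor of sensory and sympathetic neurons, had 799, 852, 860.1 and 732 in old mice against 636, 618, 364 and 559 in young mice (log2 fold change 0.61, SE 0.18, limma adjusted p = 0.189). Dbh, the enzyme that makes noradrenaline, was lower in every old mouse than in any young one, with 169, 171, 147 and 172 in old mice and 221, 178, 207 and 191 in young mice (log2 fold change -0.27, SE 0.09, limma adjusted p = 0.249).

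**Figure D4:**
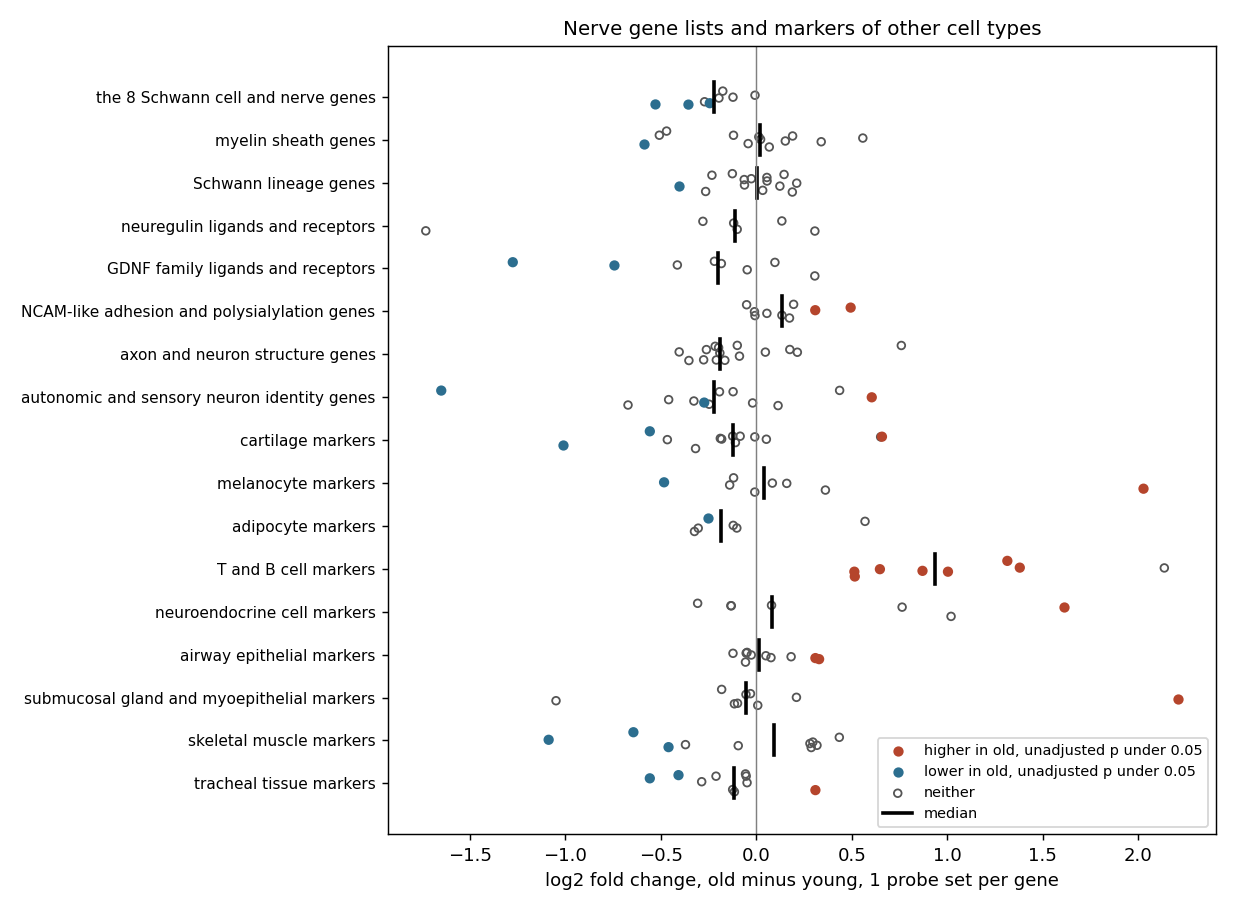
Log2 fold change of old minus young (horizontal axis), 1 point per gene at its brightest probe set, for the 8 genes, 7 nerve lists and 9 lists of other cell type markers, with the median of each list (bar) and filled points with an unadjusted p below 0.05. The 8 genes all lie left of 0, the myelin and Schwann lineage lists straddle 0, and the T and B cell markers all lie right of 0.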

How the data were processed

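RNA of the distal trachea and carina of 8 mice was measured on 1 array each. The authors named robust multichip analysis (Partek Genomics Suite) and a two-way analysis of variance whose second factor is not given in the sources used here. The deposited table holds 1 intensity per probe set on a linear scale, and each array has the same mean of 500.002 after 2% is trimmed at each end, as in single-array scaling, so how the values were normalized is not settled. Low signals carry no detection call. Signals were taken to log2 with no floor or filter, 64 control probe sets were left out of 45101, and ages were compared with limma 3.58.1 in R 4.3.3 (lmFit, eBayes, two-sided), Benjamini-Hochberg adjusted over all 45037 probe sets or 18193 genes. For genes, the probe set with the highest mean log2 signal was used; 34945 probe sets carry 1 symbol, 932 several and 9160 none. Single probe sets also had exact permutation tests, two-sided. The number of mice limits the precision, with a median SD within an age of 0.16 on the log2 scale for brighter and 0.49 for dimmer probe sets. Genes to name were the 8 genes with every probe set and up to 4 genes of each nerve list with the smallest p. Of each marker list they were the 3 brightest genes and the one with the smallest p. The text gives only some of the list genes that this rule selects, and Nkx2-1 and Pmel are given outside it. The 8 genes and all lists were chosen with earlier results of these data known. The steps were tested on simulated data. Alternatives left out each mouse, changed the variance model, array weights, scaling, block, brightness filter, floor and probe set choice.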

Additional observations from a re-analysis of the deposited data

Results flagged for a closer look

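In 7 of 112 groups of 4 mice, the lowest or highest mouse lay apart from the other 3 beyond the 95% limit of Dixon's test, which chance gives in about 1 of 20 groups. Among the 8 genes, with an old and a young group for each of the 28 probe sets, there were 3 such groups, close to that same share. Dixon's test was run on log2 signals, while the signals given here are linear. Old mouse 2 had a Sox10 signal of 89.88 on probe set 1451689_a_at, with the other old mice at 182.5 to 195.1. Old mouse 5 had 68.25 on Prph probe set 1420256_x_at, with the others at 106.3 to 112.7. Old mouse 2 had 38.41 on Ncam1 probe set 1439556_at, with the others at 61.49 to 63.99. Among the other nerve genes, young mouse 8 had 5.392 for Erbb4, with the others at 31.15 to 33.92, and 146.1 for Nfasc, with the others at 136.9 to 138.4. Old mouse 1 had 251.1 for Stmn3, with the others at 358 to 384.8. Old mouse 5 had 147.3 for Dbh, with the others at 169 to 172. No explanation of these values was tested.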

How the results depend on the processing

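Of 460 values of the 28 probe sets under the alternatives, 433 kept their sign and their side of the adjusted threshold, 25 had the opposite sign in 8 probe sets, and 2 passed the threshold, both of Mbp 1436201_x_at. A floor left no value in 5 cases, in 4 probe sets, where every mouse was at it. Without 1 mouse, 19 of the 28 log2 fold changes moved by over 1.5 times or changed sign in at least 1 fit. The count of these probe sets lower in old mice past the adjusted threshold was 1 with the trended and robust prior and 1 with the brighter part of the probe sets, where dimmer ones gave no value, and 0 otherwise. The unadjusted count ranged between 5 and 8 when 1 mouse was left out. For the other nerve genes, 1 was higher past it with the brighter part and with floors of 32 and 64 (Nfasc), and 1 was lower with the trended prior and the brighter part (Ugt8a). Without 1 mouse the adjusted lower count was 0 to 1 (Gdnf without old mouse 6). Their unadjusted counts were 5 higher with the trended prior and 3 lower with the floor of 64, and 5 to 10 lower without 1 mouse, the 10 without young mouse 8. With array weights the log2 fold change was 0.021 for Cdh19 (0.014 in the fit of genes) and 0.030 for Prph 1420256_x_at. With floors it was -0.027 for Prph 1449797_x_at (64), 0.19 for Prph 1449796_at (32) and 0.050 for Erbb3 1452482_at (32). Without 1 mouse it ranged between -0.32 and 0.028 for Mbp 1454651_x_at, -0.14 and 0.093 for Cdh19, -0.18 and 0.16 for Prph 1420256_x_at, -0.0093 and 0.44 for 1449797_x_at, -0.47 and 0.57 for 1449796_at, -0.62 and 0.024 for Ncam1 1421966_at, -0.28 and 0.022 for Gfra3 and -0.31 and 0.35 for Erbb3 1452482_at. The causes were not tested. No paired analysis was possible because old and young mice share no mouse numbers. With 4 mice an age, wide intervals of dim probe sets leave changes undetectable there.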
